A study of Mus musculus with 12 samples.

Results

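CD44 and the genes that make, cut and organise hyaluronan were followed in MB114 cells, a mouse line labelled as microvascular endothelial, over 25 h on Matrigel. The genes were Cd44, the hyaluronan synthases Has1, Has2 and Has3, the hyaluronidases Hyal1 and Hyal2, and the hyaluronan-binding proteins Tnfaip6 and Vcan. All probe sets that the platform annotation assigns to 1 of these symbols alone were taken, which gave 11 probe sets for 7 of the 8 genes, of 22690 probe sets and 12393 genes on the array. Hyal1 had no probe set of its own, since both probe sets that carry its name also carry Naa80. RNA was taken after 1, 5, 15 and 25 h on the gel, a basement membrane extract on which endothelial cells arrange themselves into cords. Each time had 3 samples, called biological replicates 1 to 3 by their titles, and each sample went onto 1 Affymetrix array. The cells were of 1 line with no added agent named in the labels, all had been split 24 h before plating on the gel, and every time was read against 1 h because cells grown without the gel were not analysed here.

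Hyaluronan is a long, unbranched sugar polymer that is made at the cell surface by the Has enzymes and extruded into the matrix. CD44 is its main cell-surface receptor, and it anchors the pericellular hyaluronan coat to the cortical cytoskeleton. Hyal2 and Hyal1 cut the polymer in turn, at the surface and in lysosomes, while TSG-6 (the product of Tnfaip6) and versican (Vcan) cross-link it into larger assemblies. In vessels this matrix is known for its part in the endothelial surface coat and in cell migration during sprouting.

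Cd44 fell and Vcan, in 1 of its 3 probe sets, rose while the other genes did not pass the test. Cd44 signal was near its starting level at 5 h and 3.12- to 3.82-fold lower at 15 h, and it was 5.02- to 5.81-fold lower at 25 h. Vcan signal was 1.57- to 2.33-fold higher at 25 h than at 1 h across its probe sets. Of the synthases, Has2 alone was above the filter on most arrays, and its arrays at 1 h differed so widely that no change could be called.

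The upstream sequences of Cd44 and Vcan are shown because these were the member genes that passed the test, in opposite directions. RefSeq promoter windows on GRCm38.p6 were matched by symbol for 6 of the 8 genes (Cd44, Has1, Hyal1, Hyal2, Tnfaip6 and Vcan), and the 250 bases before the annotated start are used here. Both genes lie on the minus strand, Cd44 at chr2:102901666-102901915 and Vcan at chr13:89742513-89742762, and both are printed in the direction of the gene. Capitals mark matches, on either strand, to any of the motifs that were searched.
Cd44: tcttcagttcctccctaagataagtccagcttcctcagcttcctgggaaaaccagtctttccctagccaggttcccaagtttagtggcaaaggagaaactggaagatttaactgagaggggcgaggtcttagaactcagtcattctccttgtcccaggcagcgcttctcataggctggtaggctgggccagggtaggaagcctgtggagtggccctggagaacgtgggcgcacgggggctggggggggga
Vcan: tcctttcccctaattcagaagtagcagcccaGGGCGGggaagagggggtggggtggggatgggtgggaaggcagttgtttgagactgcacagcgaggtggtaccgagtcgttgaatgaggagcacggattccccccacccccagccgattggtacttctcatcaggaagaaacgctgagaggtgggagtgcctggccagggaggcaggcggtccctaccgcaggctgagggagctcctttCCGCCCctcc
The motifs were AP-1 (TGANTCA), CRE (TGACGTCA), the CArG box, the GC box (GGGCGG) and the TATA box (TATAAA), each sought on both strands. The Cd44 window held no match to any of them, and so has no capitals. The capitals in the Vcan window are GC boxes that begin at positions -219 and -10, counted back from the start, and they overlap no other match. The GC box was present in 32.7% of 32841 windows of this length, and in 4 of the 6 member windows. The CArG box (1.47% of all windows) and the TATA box (12.4%) matched in 0 of the 6. An AP-1 match was present in the Tnfaip6 window (6.75% of all windows) and a CRE match in the Has1 window (1.55%). A match describes letters only, and none of these windows was measured for binding.

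The values are MAS5 signals, linear intensities that summarise the probes of a probe set, and they were compared on the log2 scale. A probe set was tested if 3 or more of its 12 signals were at least 183, the median signal of the series. Of the 11 member probe sets 10 passed, Has3 being the exception, and Has1 and Tnfaip6 passed only through arrays of later times. Times were compared with limma over all 12618 probe sets that passed, and an adjusted p (Benjamini-Hochberg) under 0.05 was called a change. Levels of the member probe sets are not compared with each other, because probes differ in how brightly they report a transcript. The marker sums below do add signals of different probe sets, so the brightest ones weigh most in them. Marker signals set against the filter share this limit. The 3 comparisons against 1 h use the same 1 h arrays and are not independent of each other. Arrays with the same replicate number deviated together. Values from a fit with the replicate number as a block are therefore given where they change a call of a member. For other genes not every such change is given.

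Array medians ran from 153.6 to 176.7 at 1 and 5 h and from 180.6 to 209.15 at 15 and 25 h, so they split by time without overlap. The 3' to 5' ratios of the Gapdh control ran from 0.751 to 0.876. The endothelial label was for the most part not borne out by marker signals. Of 15 endothelial markers, Cd34 and Cdh5 were the 2 that passed the filter, with mean signals of 531 and 181. Among the rest, Egfl7, Kdr and Eng averaged 140, 136 and 106, while Pecam1, Tie1 and Vwf averaged 17.9, 1.89 and 1.70. At each time 5 of the 15 had a mean under 44.9, the 25th percentile of all signals. Of 10 fibroblast markers 7 passed. Over all genes, 7367 of 12393 passed by their brightest probe set, and the marker counts are to be read against this share. The summed signal of all 10 per array ran from 35600 to 47740 at 1 h and from 50710 to 76970 at 25 h. Of 9 pericyte and smooth muscle markers 5 passed. The sum of all 9 went from 9340 to 22800 at 1 h down to 4340 to 6260 at 25 h, with Myh11 at a mean of 21.3. This fall was not shared by the whole list. Between 1 and 25 h the means of Acta2 (8189 to 1671), Tagln, Cnn1 and Cspg4 went down. Those of Pdgfrb (1043 to 1422), Notch3 (106 to 190), Rgs5 (83.9 to 152), Des and Myh11 went up. Of 8 leukocyte markers 3 passed. The sum of all 8 went from 2354 to 5688 at 1 h up to 7138 to 10940 at 25 h. Within that list Cd14 rose (7.26-fold at 25 h, limma adjusted p = 3.45e-06) and Csf1r fell (2.97-fold, adjusted p = 0.0161), while the pan-leukocyte marker Ptprc averaged 22.0. In bulk RNA, fewer cells of a type and less of a transcript per cell cannot be told apart.

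**Figure D1:**
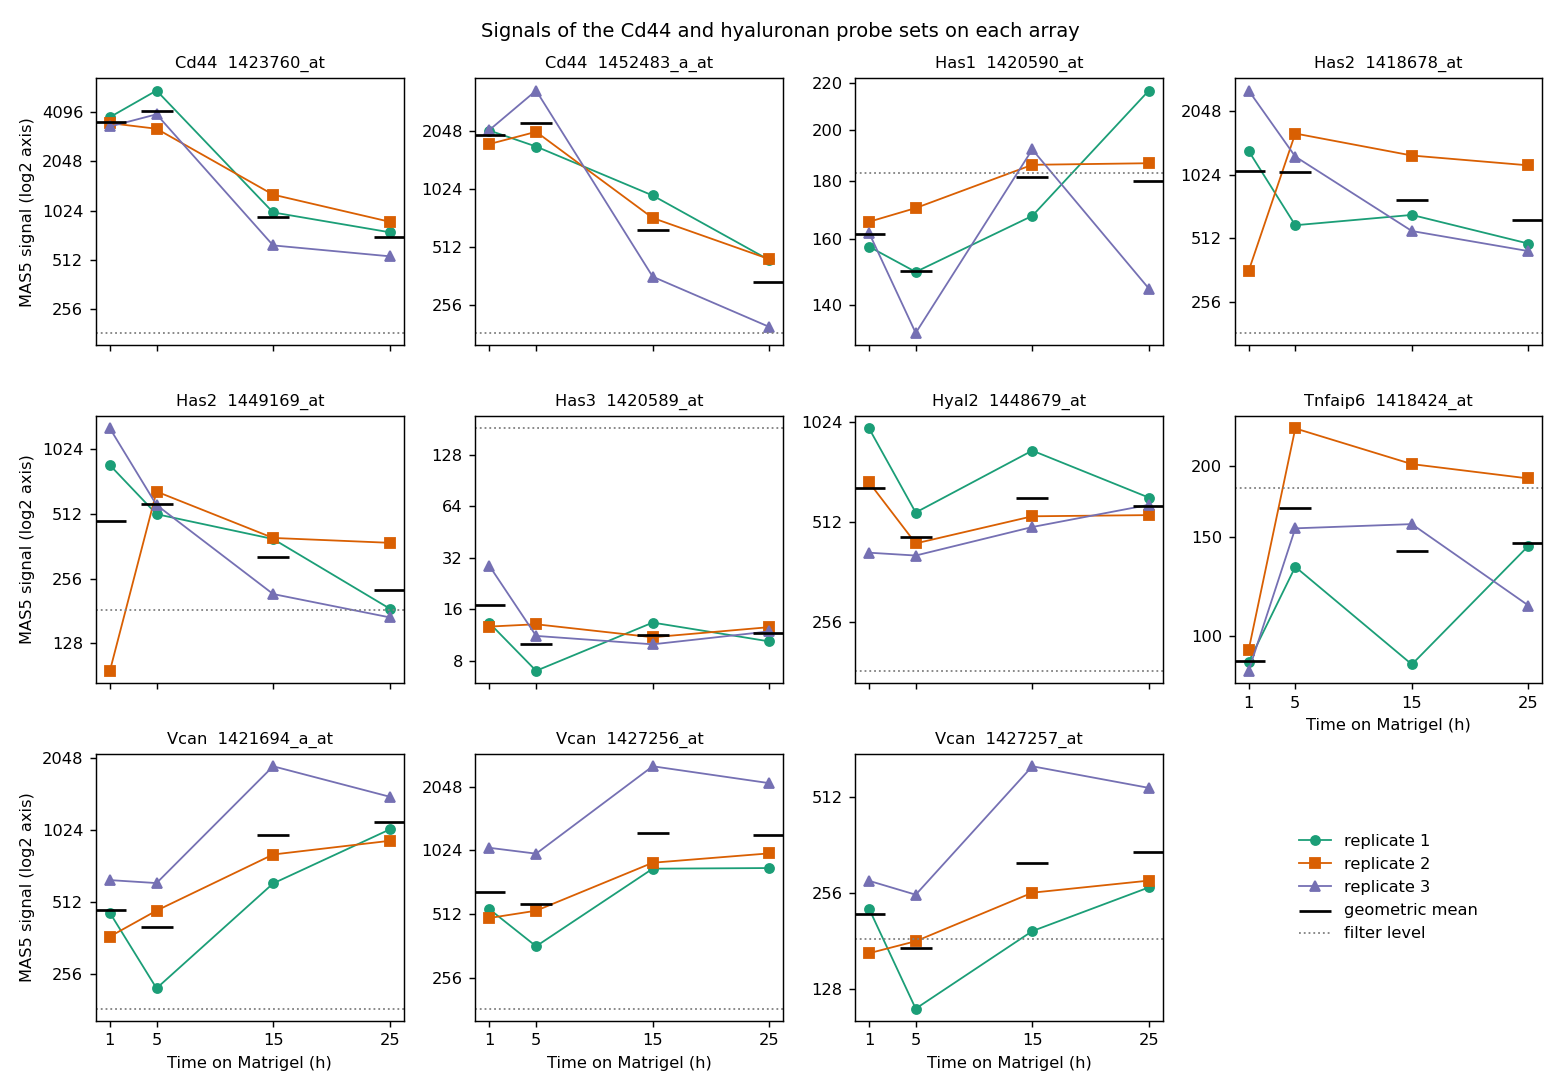
MAS5 signal (log2 axis) of each member probe set against hours on Matrigel, with 1 coloured line per replicate number, black bars for the geometric mean of 3 arrays and a dotted line at the filter level of 183. Both Cd44 probe sets are lower on every 15 and 25 h array than on any 1 or 5 h array, replicate 3 is the highest Vcan array at 15 and 25 h, and Has2 in replicate 2 at 1 h lies far below the other 1 h arrays.

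Across the 4 times, 3 of the 10 tested member probe sets changed in the moderated F test, both of Cd44 and 1421694_a_at of Vcan, where 29.4% of all tested probe sets did. With the replicate block the count was 5, the other 2 Vcan probe sets being added, against 48.7% of all. At 15 h against 1 h, 2 of 10 were called, both lower (Cd44), with 18.9% of all probe sets called and 7.5% called lower. At 25 h against 1 h, 3 of 10 were called, 2 lower (Cd44) and 1 higher (Vcan), with 32% of all called, 14.7% lower and 17.3% higher. At 15 h against 5 h, 2 of 10 were called, again Cd44, with 11.4% of all called and 4.69% lower. All lower calls came from the 2 Cd44 probe sets, which report 1 gene, so these counts say little about the members as a set. At 5 h against 1 h and at 25 h against 15 h limma called 0 of 10, where 1.09% and 0.444% of all probe sets were called. In each of these comparisons 1 member had an unadjusted p under 0.05 (Tnfaip6 at 5 h and 1 Cd44 probe set at 25 h), and the block left both counts at 0 (5.25% and 2.94% of all).

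Signals of the 3 later and 3 earlier arrays did not overlap for 1 member probe set at 5 h against 1 h (17.3% of all probe sets), 3 at 15 h (38.2%) and 4 at 25 h (45.2%). The corresponding counts were 3 for 15 h against 5 h (32.5%) and 0 for 25 h against 15 h (13.2%).

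Cd44, the hyaluronan receptor, had 2 probe sets. On the brighter, 1423760_at, signals at 1 h were 3821, 3511 and 3349 (replicates 1, 2 and 3) and at 5 h 5555, 3244 and 3976. At 15 h they were 999, 1283 and 628, and at 25 h 755, 876 and 538. Every array at 15 and 25 h lay below every array at 1 and 5 h, while the 1 and 5 h arrays overlapped. In the order of the times, the group means were 3560 ± 240 (SD, n = 3), 4258 ± 1181, 970 ± 328 and 723 ± 171. The log2 change from 1 h was -1.93 at 15 h (SE 0.28, 95% interval -2.53 to -1.34, limma adjusted p = 0.000985) and -2.33 at 25 h (interval -2.92 to -1.73, adjusted p = 9.35e-05). The signal was lower in 3 of 3 same-numbered pairs in both comparisons.

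Most of that fall lay between 5 and 15 h. The log2 change over this interval was -2.16 (4.47-fold lower, limma adjusted p = 0.00228), and it was the 14th lowest of 12618 changes in that comparison. From 1 to 5 h the change was 0.22 (interval -0.37 to 0.82, adjusted p = 0.831), and from 15 to 25 h it was -0.39 (interval -0.99 to 0.20, adjusted p = 0.873). The 5 to 15 h call was lost without the 4 arrays numbered 1 (adjusted p = 0.0703), a setting in which only 2 probe sets of all tested were called.

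The second Cd44 probe set, 1452483_a_at, gave the same order of times. Its signals were 2057, 1751 and 2073 at 1 h and 1699, 2026 and 3318 at 5 h. They were 946, 723 and 359 at 15 h and 437, 442 and 197 at 25 h. Again no array of the later times reached any array of the earlier ones, and replicate 3 was the lowest at 15 h and at 25 h. The log2 change from 1 h was -1.64 at 15 h (SE 0.39, limma adjusted p = 0.0116) and -2.54 at 25 h (adjusted p = 0.000458), and it was -1.85 from 5 to 15 h (adjusted p = 0.0117). Here the difference between 15 and 25 h was -0.90 (interval -1.73 to -0.06, unadjusted p = 0.037, adjusted p = 0.555), lower in 3 of 3 pairs and short of the threshold. Without the arrays numbered 1 the 15 h calls were lost against 1 h (adjusted p = 0.0629) and against 5 h (0.072), as they were without those numbered 2 (0.0984 and 0.131). Across the 12 arrays the log2 signals of both Cd44 probe sets had a Pearson r of 0.94.

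Markers of other cell types moved over the same interval. The summed pericyte and smooth muscle markers ran from 8464 to 17100 at 5 h and from 4538 to 6604 at 15 h. At 15 h against 5 h, 3 of the 5 tested (Acta2, Tagln and Cnn1) were called lower and 0 higher. Of all tested probe sets, 4.69% were called lower in that comparison. Pdgfrb had a log2 change of 0.64 there (limma adjusted p = 0.0934) and Cspg4 -0.78 (adjusted p = 0.246, with block 0.0168). At 15 h against 1 h the same 3 were called lower and 1 was called higher (Pdgfrb, log2 change 0.72, limma adjusted p = 0.0465). The shares of 7367 genes were 7.71% lower and 13.8% higher. Cspg4 had 0.74 against 1 h (adjusted p = 0.241, with block 0.0166). The part of these markers in the fall of Cd44 was not tested. The genes whose log2 signal followed 1423760_at most closely over the 12 arrays, of 7361 genes searched, were Rgs16, a regulator of G-protein signalling (r = 0.98), Rbmx2 (0.98) and Tfrc, the transferrin receptor (0.98). These are descriptions over arrays that share 4 times and 3 replicate numbers.

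**Figure D2:**
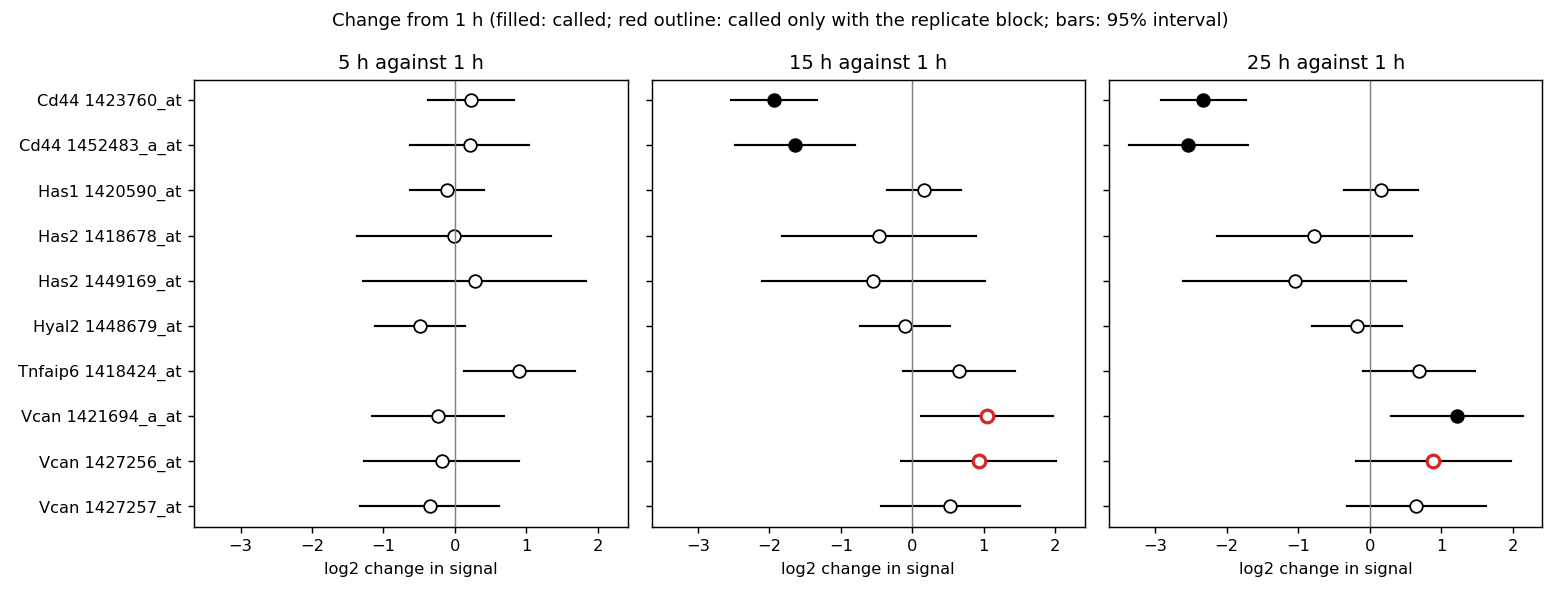
Log2 change in signal from 1 h (x axis) for the 10 tested member probe sets at 5, 15 and 25 h, with 95% intervals as bars, filled points for adjusted p under 0.05 and red outlines for calls made only with the replicate block. Cd44 lies between -1.64 and -2.54 at 15 and 25 h, Vcan lies above 0 at both, and the Has2 intervals are the widest.

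Vcan encodes versican, a large chondroitin sulfate proteoglycan whose head domain binds hyaluronan, and it had 3 probe sets. On 1421694_a_at signals were 461, 367 and 632 at 1 h and 223, 471 and 614 at 5 h. They were 612, 809 and 1895 at 15 h and 1030.5, 923 and 1412 at 25 h. All 3 arrays at 25 h exceeded all 3 at 1 h, whereas the lowest 15 h array lay just under the highest 1 h array. The log2 change at 25 h was 1.22 (2.33-fold, SE 0.43, interval 0.29 to 2.14, limma adjusted p = 0.0447), higher in 3 of 3 pairs. This call lay close to the threshold. It was lost in 11 of 26 alternative settings, including without 1 h replicate 1 (adjusted p = 0.102) or 2 (0.138), without 25 h replicate 1 (0.0833), 2 (0.0623) or 3 (0.132) and without replicate 2 of 5 h or of 15 h (0.0551 for each), with a highest adjusted p of 0.229 without all arrays numbered 2. With the replicate block the adjusted p was 0.0022.

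At 15 h the same probe set was 1.04 higher than at 1 h on the log2 scale (interval 0.12 to 1.97, adjusted p = 0.106) and 1.29 higher than at 5 h (adjusted p = 0.0704). Neither passed without the block, and both did with it (adjusted p = 0.00839 and 0.00388). From 15 to 25 h the difference was 0.17 (interval -0.75 to 1.10).

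On 1427256_at, signals were 540, 491 and 1052 at 1 h, 361, 531 and 987 at 5 h, 838 (replicate 1), 895 and 2554 at 15 h, and 844, 990.5 and 2125 at 25 h. Replicate 3 was the highest array at every time, and within each replicate number both later arrays were above both earlier ones. Without the block the log2 changes were 0.93 at 15 h (limma adjusted p = 0.22) and 0.89 at 25 h (1.86-fold, adjusted p = 0.197) against 1 h, and 1.11 for 15 h against 5 h (adjusted p = 0.167). With the block all 3 passed, with adjusted p = 0.00134, 0.000935 and 0.000769.

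The third probe set, 1427257_at, read 228, 166 and 280 at 1 h and 111, 181 and 253 at 5 h. Its signals were 194, 257 and 640 at 15 h and 267, 280 and 547 at 25 h. Groups overlapped in every comparison but the highest array was again replicate 3 at 15 and 25 h. It was not called without the block (0.65 at 25 h against 1 h, 1.57-fold, adjusted p = 0.297), and with it passed for 15 h against 5 h (0.88, adjusted p = 0.0226) while 25 h against 1 h stayed short (0.0531). The 3 Vcan probe sets had pairwise r values from 0.94 to 0.96 over the 12 arrays.

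With the block, 2 member probe sets were called higher and 2 lower at 15 h against 1 h (20.2% and 14.5% of all probe sets, 34.7% in either direction), and the same numbers at 25 h (25.2% and 21.1%, 46.3% in all). For 15 h against 5 h the numbers were 3 and 2 (15.9% and 11.7%, 27.7% in all). The higher calls were Vcan and the lower ones Cd44 in each case.

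The sum of the fibroblast markers was higher at the times when Vcan was high, but not each marker was. Their summed signal was 31860 to 44830 at 5 h and 47950 to 67760 at 15 h. At 25 h against 1 h, 4 of the 7 tested (Col3a1, Dcn, Pdgfra and Thy1) were called higher and 0 lower, of 10 on the list. Of 7367 genes, 20.5% were called higher and 14.3% lower. Col1a1, Col1a2 and Postn were not called there (log2 changes 0.03, 0.24 and 1.64, limma adjusted p = 0.963, 0.394 and 0.302). At 15 h against 1 h, 2 of the 7 were called higher (13.8% of genes), and 4 with the block (20.2% of all probe sets). Their part in the Vcan values was not tested. Nearest to Vcan 1427256_at over the 12 arrays were Ifit1, an interferon-induced gene (r = 0.98), Igfbp5, which binds insulin-like growth factors (0.97), and Tax1bp1 (0.96). Cd44 and Vcan ran opposite ways, with r from -0.88 to -0.68 between their probe sets, as the plot of both signals by array shows. These r values pool the 4 times, over which both genes moved in opposite directions, so they add nothing to the time comparisons.

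**Figure D3:**
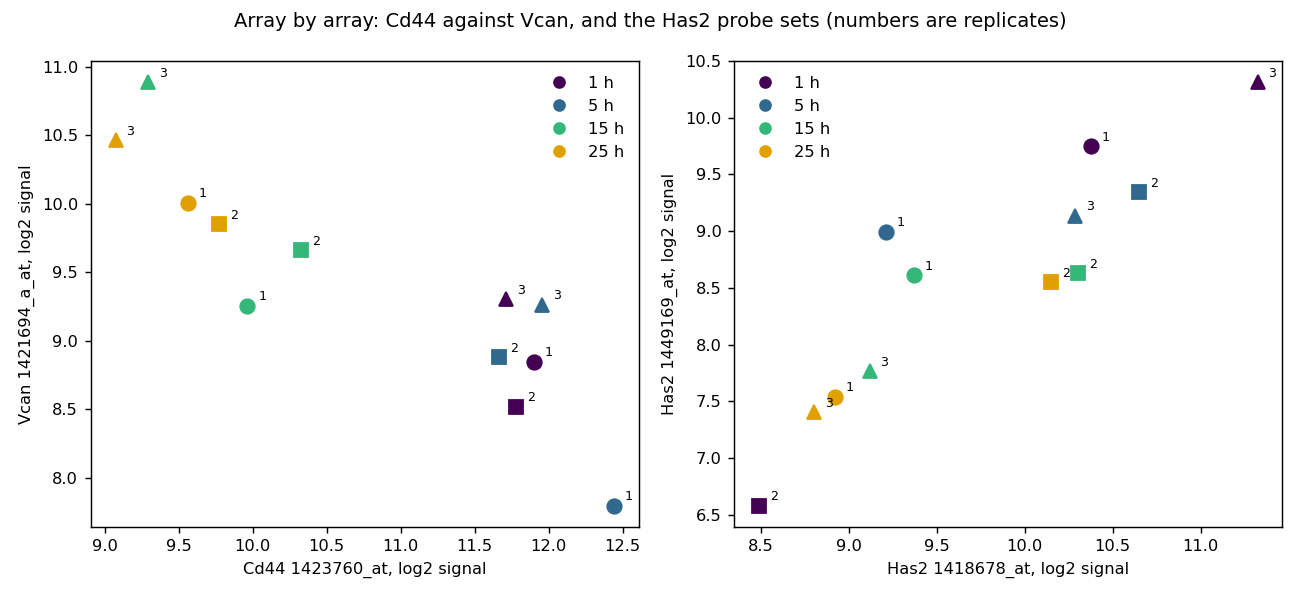
Log2 signals of the 12 arrays, coloured by time and numbered by replicate, for Cd44 1423760_at against Vcan 1421694_a_at (left) and for the Has2 probe sets against each other (right). On the left the 15 and 25 h arrays lie at low Cd44 and mostly high Vcan, and on the right replicate 2 at 1 h is the lowest array and replicate 3 at 1 h the highest.

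Has2, the synthase that makes long hyaluronan chains in most mesenchymal and endothelial cells, also had 2 probe sets. On 1418678_at signals were 1328, 360 and 2562 at 1 h, 591, 1605 and 1249 at 5 h, 662, 1263 and 555 at 15 h, and 484, 1135 and 446 at 25 h. Replicates 1 and 3 were highest at 1 h and lowest at 25 h, while replicate 2 was lowest at 1 h. The mean at 1 h was 1417 ± 1104 (SD, n = 3), and the log2 change at 25 h was -0.77 with an interval from -2.13 to 0.59 (limma adjusted p = 0.378).

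On 1449169_at the 1 h signals were 860, 95.6 and 1274 and the 5 h signals 510, 649 and 562. They were 391, 395 and 217 at 15 h and 186, 375 and 169 at 25 h. Replicate 2 at 1 h was again the lowest of all 12 arrays, and the arrays at 15 h all lay below those at 5 h (log2 change -0.82, adjusted p = 0.497). The change from 1 to 25 h was -1.05 (interval -2.61 to 0.51, adjusted p = 0.293), lower in 2 of 3 pairs. Both probe sets moved together over the arrays (r = 0.90), so the low array is shared by them.

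Has2 calls turned on that array. Without replicate 2 at 1 h, the log2 change from 1 to 25 h was -1.56 on 1418678_at (limma adjusted p = 0.0461) and -2.20 on 1449169_at (adjusted p = 0.00167), and the latter was also called at 15 h (-1.70, adjusted p = 0.013). Without all 4 arrays numbered 2 the 25 h values were -1.99 (adjusted p = 0.0203) and -2.56 (0.00569). With all arrays kept, Has2 was not called in any comparison. At 25 h against 1 h the intervals of both probe sets allow a fall of over 2 on the log2 scale as well as a rise. The genes nearest to 1418678_at over the 12 arrays were Cotl1, Blnk and Card10, at r of 0.77, 0.76 and 0.76.

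Has1, a synthase usually held at low levels, ran from 132 to 217 on 1420590_at, at or over the filter on 4 of 12 arrays, all of them at 15 or 25 h. Its arrays at 15 h lay above those at 1 h by 0.17 on the log2 scale (interval -0.35 to 0.69, limma adjusted p = 0.675), and it was not called in any comparison. The genes nearest to it were Ap4m1, Sort1 and Srebf1 (r from 0.86 to 0.88). Has3, which makes shorter chains, ran from 7.0 to 28.7 on 1420589_at. All 12 of its arrays were under 44.9, the 25th percentile of all signals, so its level is not known to be above background and it was not tested.

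Hyal2, a surface-bound hyaluronidase that begins breakdown of the polymer, read 983, 676 and 415 at 1 h and 548, 443 and 407 at 5 h on 1448679_at. Its signals were 843, 534 and 496 at 15 h and 608, 539 and 578 at 25 h. Groups overlapped at all times and the widest spread was at 1 h. The log2 change at 5 h was -0.49 (interval -1.12 to 0.13, limma adjusted p = 0.543), lower in 3 of 3 pairs, with an adjusted p of 0.172 under the block. Its nearest genes were Ube3b, Smad4 and Pgrmc2 (r from 0.87 to 0.88).

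The lysosomal hyaluronidase Hyal1 can be described only through probe sets shared with Naa80, an actin acetyltransferase gene, and the signal cannot be assigned to either gene. The first, 1419213_at, read 201, 328 and 185 at 1 h, 204, 266 and 211 at 5 h, 342, 345 and 383 at 15 h, and 305, 341 and 376 at 25 h. All 15 h arrays exceeded all 1 h and 5 h arrays. The log2 change was 0.63 at 15 h (limma adjusted p = 0.0797, with block 0.0315), 0.56 at 25 h (0.0872, with block 0.0397) and 0.66 for 15 h against 5 h (0.0895, with block 0.0322). The other, 1449954_at, ran from 53.4 to 149.7, under the filter on all arrays.

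Tnfaip6 encodes TSG-6, a secreted protein that moves heavy chains onto hyaluronan in inflamed and ovulating tissue. Its signals on 1418424_at were 89.8, 94.3 and 86.6 at 1 h and 132.5, 233.4 and 155.1 at 5 h. They were 88.9, 201.7 and 157.8 at 15 h and 144.4, 190.2 and 113.1 at 25 h. All arrays at 5 and 25 h exceeded those at 1 h, replicate 2 was highest at every time, and replicate 1 at 15 h was at the 1 h level. Only the 3 later arrays of replicate 2 reached the filter. The log2 change at 5 h was 0.90 (1.87-fold, interval 0.12 to 1.68, unadjusted p = 0.0267, limma adjusted p = 0.331, with block 0.0908) and at 25 h 0.69 (adjusted p = 0.164), so neither was called. The genes nearest to it were 3110040N11Rik, Mrps33 and Tspyl4 (r from 0.87 to 0.95).

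Genes that supply, cut or bind hyaluronan beside the members were counted from lists, with the brightest probe set per gene. At 25 h against 1 h the median log2 change over 7367 genes was 0.13, with 20.5% called higher and 14.3% lower (29% and 20.3% with the replicate block). The counts below are read against these shares, and nothing particular to a list is drawn from them. The sugar nucleotide list, which covers the supply of UDP-glucuronic acid and UDP-N-acetylglucosamine to the synthases, had 7 tested genes, of which 1 was called higher and 0 lower at 25 h, with a median of 0.30. With the block Ugdh was added (log2 change 0.41, adjusted p = 0.073, with block 0.0152). Nagk, which salvages N-acetylglucosamine, went from 213, 134 and 357 at 1 h to 546, 515 and 849 at 25 h (2.86-fold, limma adjusted p = 0.0082). Ugdh, which makes UDP-glucuronic acid, rose at 15 h from 3708, 3412 and 3130 to 5665, 5686 and 4395 (1.53-fold, adjusted p = 0.0197), with no overlap between the times. The Ugdh call was lost without 1 h replicate 2 or 3 or 15 h replicate 1 or 2, with a highest adjusted p of 0.207 over all alternatives. At 15 h, 2 of the 7 were called higher (13.8% of all genes), from 0 to 2 when any 1 array was left out.

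Other hyaluronan-degrading enzymes had 4 tested of 6 measured, and 3 rose and 0 fell at 25 h, with a median of 1.17. Hexa, a lysosomal hexosaminidase subunit that trims the sugar chain ends, went from 628, 1128 and 1052 at 1 h to 2455, 3017 and 3557 at 25 h (3.28-fold, limma adjusted p = 0.000622). Cemip, a hyaluronan-depolymerising protein, went from 126, 191 and 131 to 477, 649 and 226 (2.81-fold, adjusted p = 0.00973). Of its arrays at 1 and 5 h, only replicate 2 at 1 h reached the filter. Cemip was therefore tested only because of later arrays, where it is high. Its 25 h call was lost without all arrays numbered 1 or all numbered 2, with a highest adjusted p of 0.124 over all alternatives. Gusb, the lysosomal beta-glucuronidase, went from 690, 921 and 440 to 1137, 1296 and 1129 (1.81-fold, adjusted p = 0.0197), and this call was lost without 1 h replicate 3 or 25 h replicate 2. Its other tested probe set had 0.46 on the log2 scale and was not called (adjusted p = 0.296). On the probe sets given by array, the 25 h arrays lay above the 1 h arrays. Cemip2, a related surface protein, had -0.28 on the log2 scale at 25 h (adjusted p = 0.698), and Hyal3 and Spam1 averaged 17.9 and 10.7, below the filter.

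Of the other hyaluronan receptors, link proteins and binding proteins, 2 of 16 measured passed the filter. Hmmr, which encodes the hyaluronan-mediated motility receptor and is also a mitotic spindle protein, went from 1511, 1390.5 and 1640 at 1 h to 458, 406 and 164 at 25 h (4.83-fold lower, limma adjusted p = 0.000186). Its 3 other tested probe sets were called in the same direction. Ptx3, which binds TSG-6 in hyaluronan matrices, averaged 3325, 806, 1010 and 1176 at the 4 times in order, with a wide spread at 1 h (SD 2080), and was not called without the block (log2 change at 5 h -2.98, adjusted p = 0.144, with block 0.018). The lymphatic and sinusoidal receptors Lyve1, Stab1 and Stab2 averaged 34.2, 16.2 and 101 and did not pass.

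The partners, ligands and sheddases of CD44 had 8 tested of 9 measured, of which 2 rose and 2 fell at 25 h, with a median of -0.14. With the block 3 rose and 4 fell, adding Rdx (log2 change -0.47, adjusted p = 0.0821, with block 0.012), Nf2 (-0.55, 0.141, with block 0.0343) and the sheddase Adam10 (0.50, 0.0795, with block 0.0316). Ezr, which encodes ezrin, a linker of CD44 to actin, went from 1735, 1447 and 2393 at 1 h to 765, 531 and 658 at 25 h (2.82-fold lower on its brightest probe set, limma adjusted p = 0.000487). The other tested Ezr probe set did not show this fall, with a log2 change of 0.39 (adjusted p = 0.43). Mmp14, a membrane-bound protease that can cleave CD44, went from 1420, 1547 and 1653 to 2844, 2792 and 2893 (1.85-fold, adjusted p = 0.00112). On these probe sets both changes had non-overlapping arrays and remained called in all 27 alternatives, and the other Mmp14 probe set was called in the same direction. Mmp9, a gelatinase that can dock on CD44, went from 133, 81.2 and 55.4 at 1 h to 475, 499 and 182 at 25 h (4.16-fold, adjusted p = 0.0133), a call lost without 1 h replicate 3 or 25 h replicate 1 or 2. Its 1 h arrays were all under the filter of 183, so Mmp9 was tested only through later arrays, where it is high. At 5 h against 1 h Mmp9 was called with the block only (log2 change 2.10, limma adjusted p = 0.109, with block 0.000477). Msn (moesin) was 1.37-fold lower at 25 h (adjusted p = 0.0331), which was lost in 13 of 27 alternatives, among them leaving out any single array at 1 or 25 h. The other Msn probe set had -0.78 and was not called (adjusted p = 0.148).

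Versican partners and proteases had 6 tested of 7 measured, and 1 rose and 2 fell at 25 h, with a median of -0.11. Fbln1 (fibulin-1, a versican ligand) went from 792, 659 and 864 at 1 h to 1633, 1627 and 2943 at 25 h (2.59-fold, limma adjusted p = 0.00316). Timp3, an inhibitor of the ADAMTS proteases that cut versican, went from 2103, 1224 and 6092 to 171, 420.5 and 934 (6.16-fold lower, adjusted p = 0.0145), and its 3 other tested probe sets were called in the same direction. The Timp3 call was lost without 1 h replicate 3 or 25 h replicate 1. Fbln2 fell 1.91-fold (adjusted p = 0.0263), lost without 1 h replicate 1 or 2 or 25 h replicate 3. Adamts1, one of those proteases, was 2.60-fold lower at 5 h (adjusted p = 0.0434), a call lost in 18 of 27 alternatives.

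Chondroitin sulfate synthesis, which builds the side chains of versican, had 8 tested of 12 measured, and 3 rose and 0 fell at 25 h, with a median of 0.51. Csgalnact1, which starts the chain, went from 84.8, 53 and 22.2 at 1 h to 585, 301 and 214 at 25 h (7.22-fold, limma adjusted p = 0.00193). Its arrays at 1 and 5 h were all under the filter of 183, and 1 of those at 1 h was under 44.9, so it was tested only through later arrays, where it is high, and the size of its fold is uncertain. Chpf2, a chain polymerising factor, went from 1318, 1062 and 1047 to 2067, 1955 and 2429 (1.88-fold, adjusted p = 0.00131), and Chst12, a 4-O-sulfotransferase, from 479, 518 and 283 to 1167, 916 and 980 (2.46-fold, adjusted p = 0.00333). All of these arrays were higher at 25 h than at 1 h, and the 3 calls were kept in each alternative run. With the block 4 were called higher and 1 lower, adding the linker enzyme B3gat3 (log2 change 0.51, adjusted p = 0.0543, with block 0.0287) and the sulfotransferase Chst15 (-1.28, 0.104, with block 0.0353).

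**Figure D4:**
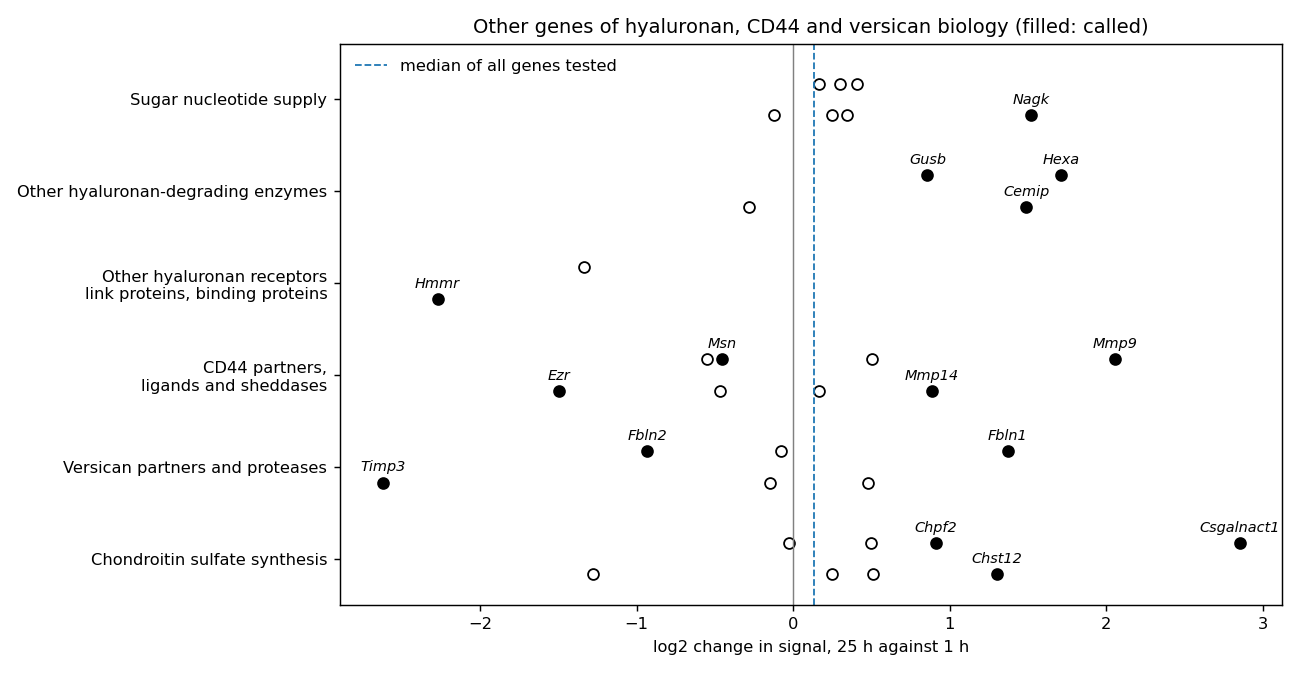
Log2 change in signal from 1 h to 25 h (x axis) for each tested gene of the 6 lists (rows), filled and named where limma's adjusted p was under 0.05, with a dashed line at the median of all 7367 genes (0.13). Called genes lie on the higher side in the sugar nucleotide, degrading enzyme and chondroitin sulfate lists, on the lower side in the receptor list (Hmmr), and on both sides in the CD44 and versican partner lists.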

How the data were processed

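The deposited values are intensities, 1 MAS5 signal per probe set and array, made by the authors with MAS5, per the submitters' processing notes (version details, background settings and detection calls: not given in the sources used here). Their trimmed mean was 500.1 to 500.2 on each array, so no further scaling was applied. Samples were assigned by title, and 0 columns of other samples were present. Of 22690 probe sets, 64 controls and 1 with empty values were left out of the tests. The platform annotation can be old: 20380 probe sets have 1 symbol, 691 have several and 1555 have none.

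Log2 signals were fitted with limma 3.58.1 in R 4.3.3 (1 mean per time over 12 arrays, 8 residual degrees of freedom, eBayes with intensity trend, 2-sided), with p-values adjusted over 12618 probe sets and the script tested on simulated data. Nothing in the labels says that replicates were separate cultures, so p-values measure the spread between these samples. The smallest exact 2-sided permutation p of 3 against 3 is 0.1. Arrays of the same number had deviation correlations of 0.28 to 0.759, those of other numbers -0.575 to 0.135, and 12 of 12 arrays were closest to their own number, so the number was taken to pair samples; what it marks is not stated. The number of arrays limits the precision. The members and lists were chosen with earlier results of these data known. Named beside the members were up to 4 called genes per list with the smallest adjusted p, and the 3 genes nearest to each member by Pearson r. Alternatives were the block, median centring, quantile normalization, other filters, an added offset, no trend, fewer arrays and the brightest probe set per gene.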

Additional observations from a re-analysis of the deposited data

How the results depend on the processing

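The member calls depended most on the replicate block and on leaving out all arrays of 1 number. The main counts of called member probe sets were 2 (15 h against 1 h), 3 (25 h against 1 h), 2 (15 h against 5 h), 0 (25 h against 15 h), 0 (5 h against 1 h) and 3 (F test). With the replicate block they became 4, 4, 5, 0, 0 and 5. With the brightest probe set per gene, where 6 member probe sets enter, the counts were 1 at 15 h against 1 h, 25 h against 1 h, 15 h against 5 h and in the F test. Leaving out any 1 array or all arrays of 1 number gave 1 to 3 (15 h against 1 h), 2 to 4 (25 h against 1 h), 0 to 3 (15 h against 5 h) and 2 to 4 (F test). With the block as well, leaving out number 1 gave 6, 5, 5 and 5 in that order, number 2 gave 5, 6, 4 and 6, and number 3 gave 4 for 15 h against 5 h, 5 in the F test and 1 for 25 h against 15 h (Cd44 1452483_a_at, adjusted p = 0.0486). No member or named gene changed sign while called. Leaving out numbers 2 and 3 was chosen after seeing the data.

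Over all probe sets, 137 were called at 5 h against 1 h, 2386 at 15 h, 4033 at 25 h, 1444 at 15 h against 5 h and 56 at 25 h against 15 h. With the block the counts were 663, 4379, 5843, 3490 and 371, and the F test went from 3710 to 6150. Fitting the arrays of the compared times alone gave 12, 882 and 0 for 5 h against 1 h, 15 h against 5 h and 25 h against 15 h. Without a filter 84 were called at 5 h against 1 h, and quantile normalization gave 97 at 25 h against 15 h. Without the arrays numbered 1 the counts were 1, 520, 2163, 2 and 0, and 1318 in the F test. Without those numbered 2 they were 0, 529, 1923, 27 and 0, and 1131. Without number 3 they were 65 at 5 h and 1300 at 15 h against 1 h, 631 for 15 h against 5 h and 25 for 25 h against 15 h. With the block as well, number 2 left out gave 67 at 5 h, and number 3 left out gave 488 at 5 h, 2250 for 15 h against 5 h and 206 for 25 h against 15 h. Fewer arrays leave fewer residual degrees of freedom; the cause of the other differences was not tested.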
